A study of Mus musculus with 21 samples.

Results

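The 10 genes described here carry the cyclic AMP signal inside the cell: the adenylyl cyclases Adcy3, Adcy6, Adcy7 and Adcy9, the protein kinase A (PKA) subunits Prkaca, Prkar1a and Prkar2b, the PKA inhibitors Pkia and Pkig, and the anchoring protein Akap12. They were chosen by name, with earlier results of these data known, so counts of members called beside all genes are a description only. Each was read from the array feature (transcript cluster) annotated with that gene symbol alone, taking the cluster with the highest mean where a gene had several. Of the 10, 8 were measured in this way, among 22180 genes tested. Adcy3 and Pkig each had 1 cluster that was shared with another gene symbol, so no value is given for them.

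The study asked what analogs of parathyroid hormone (PTH) do to gene expression in primary osteoblasts, the bone-forming cells, grown from the skull vault of C57BL/6J pups aged 7 to 10 days. Every culture was at passage 2, was differentiated from day 3 with beta-glycerophosphate and ascorbic acid, and went without serum for 24 h from day 10. Treatment then lasted 4 h in serum-free medium. The groups were hPTH(1-31), hPTH(1-34) and PTH(1-36), bPTH(3-34) and hPTH(7-34), all at 100 nM, a bovine PTH(7-34) amide with D-Trp12 and Tyr34 at 1000 nM (bPTH(7-34) below), and vehicle, with 3 Mouse Gene 2.0 ST arrays each and 21 in all. The first 3 are called intact analogs because they begin at residue 1, and the 3 that begin at residue 3 or 7 are called truncated. The labels say that cells were prepared separately for each replicate, and the cells are primary cultures, not a clonal line.

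PTH acts on osteoblasts through Pth1r, a receptor that activates adenylyl cyclases through the stimulatory G protein. Cyclic AMP binds the regulatory subunits of PKA and frees the catalytic subunits, which phosphorylate CREB and other proteins. PKA inhibitor peptides block the free catalytic subunits, and A-kinase anchoring proteins hold the enzyme at particular places in the cell. CREB binds the cyclic AMP response element TGACGTCA and, more weakly, its shorter part TGACG.

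Promoter sequence from RefSeq (GRCm38.p6) is shown for 3 members that bear on the results below: Prkar1a, which rose with the intact analogs against vehicle, Adcy9, which fell, and Prkar2b, which did not pass that test but fell against bPTH(3-34). Each run is the 250 bases before a start site, 5′ to 3′ on the gene's own strand. Capitals mark TGACGTCA in Prkar1a (chr11:109650699-109650948, plus strand) and TGACG in Adcy9 (chr16:4420499-4420748, minus strand), and Prkar2b (chr12:32061278-32061527, minus strand) has neither.
Prkar1a: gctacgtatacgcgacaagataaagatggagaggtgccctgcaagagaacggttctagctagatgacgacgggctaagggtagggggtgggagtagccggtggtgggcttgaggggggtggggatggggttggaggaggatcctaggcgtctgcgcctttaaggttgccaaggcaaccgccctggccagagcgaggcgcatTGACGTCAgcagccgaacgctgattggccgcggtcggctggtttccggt
Adcy9: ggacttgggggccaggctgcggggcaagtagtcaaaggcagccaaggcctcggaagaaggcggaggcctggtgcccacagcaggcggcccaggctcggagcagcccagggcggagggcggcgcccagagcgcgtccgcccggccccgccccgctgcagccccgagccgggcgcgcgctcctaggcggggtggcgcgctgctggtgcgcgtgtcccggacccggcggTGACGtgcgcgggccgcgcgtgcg
Prkar2b: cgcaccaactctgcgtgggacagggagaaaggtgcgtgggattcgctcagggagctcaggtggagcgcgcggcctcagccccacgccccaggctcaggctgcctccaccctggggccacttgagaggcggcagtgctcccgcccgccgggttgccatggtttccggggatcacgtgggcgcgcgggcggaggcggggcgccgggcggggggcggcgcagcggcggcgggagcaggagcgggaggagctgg
Both motifs were searched on both strands (TGACG also as CGTCA), and each TGACGTCA also counts as a TGACG. RefSeq windows were at hand for 7 members: Adcy3, Adcy7, Adcy9, Prkaca, Prkar1a, Prkar2b and Pkig. Prkar1a was the only one of them with TGACGTCA. The motif stood in 2 of its 6 windows, which overlap and share the site, and the printed window was taken because it holds the motif 49 bases before the start. Of all windows, 1.79% of 32851, and 2.03% of 27025 genes, held TGACGTCA. TGACG was common, in 20.8% of windows, and in Adcy9 it began 24 bases before the start. The printed Prkar1a run also holds a TGACG that begins 187 bases before the start, left in lower case, and windows of Adcy7, Prkaca and Pkig hold TGACG. A match describes these letters only.

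The arrays had medians between 3.49 and 3.61 log2 units, and arrays of 1 group correlated between 0.990 and 0.993 over all genes. The upper quartile over all 41345 transcript clusters, named or not, was at most 5.82 on any array. Of 10 osteoblast markers measured, 8 lay above 5.82 in vehicle cultures, with Col1a1 at 13.2 and Sp7 at 5.94. Bglap (3.73) and Phex (4.35) did not. All 14 macrophage markers lay above 5.82 too in vehicle cultures, with Lyz2 at 12.2, Cd68 at 11.3, Csf1r at 10.2 and Cx3cr1 at 5.85. The summed macrophage signal ranged from 13.62 to 13.92 log2 units over the 9 intact arrays, from 13.85 to 14.10 over the truncated ones and from 13.82 to 13.99 in vehicle. Of these 14, only Cx3cr1 was called between the intact mean and vehicle, with a difference of -0.42 ± 0.10 (adjusted p = 0.00994). Of 12 innate immune genes 6 rose in that contrast (Tnf, Cxcl5, Acod1, Il6, Ptgs2 and Lcn2), where 11.9% of all genes were called. The median difference was 0.56 over the list and -0.02 over all genes. Tnf and Acod1 were also called higher with hPTH(7-34) against vehicle. Among osteoblast markers Alpl rose and Sp7 and Pth1r fell, among 5 endothelial markers Kdr rose and Tek fell, and among 4 chondrocyte markers Acan rose. In RNA from whole cultures, fewer cells of a type and less RNA per cell cannot be told apart, and the part of these other transcripts in the results below was not tested.

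With the intact analogs, 4 of the 8 measured genes changed against vehicle when the 3 intact groups were averaged. Prkar1a rose 1.23-fold, while Adcy6 fell 1.27-fold, Adcy9 fell 1.31-fold and Pkia fell 1.39-fold. Adcy7, Prkaca, Prkar2b and Akap12 did not pass the test. Genes called at an adjusted p under 0.05 made up 11.9% of all 22180 in that contrast. The median difference was -0.23 over the 8 genes and -0.02 over all genes. The 8 genes had means from 5.57 (Pkia) to 9.22 (Prkaca) over all arrays, above the array medians of 3.49 to 3.61. With the truncated analogs none of the 8 was called against vehicle in limma, and 0 had an unadjusted p under 0.05, where bPTH(3-34) called 0% of all genes, hPTH(7-34) 0.0721% and bPTH(7-34) 0%. All 6 contrasts use the same 3 vehicle arrays. Differences below are on the log2 scale, analog minus vehicle, with the standard error of the model.

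**Figure D1:**
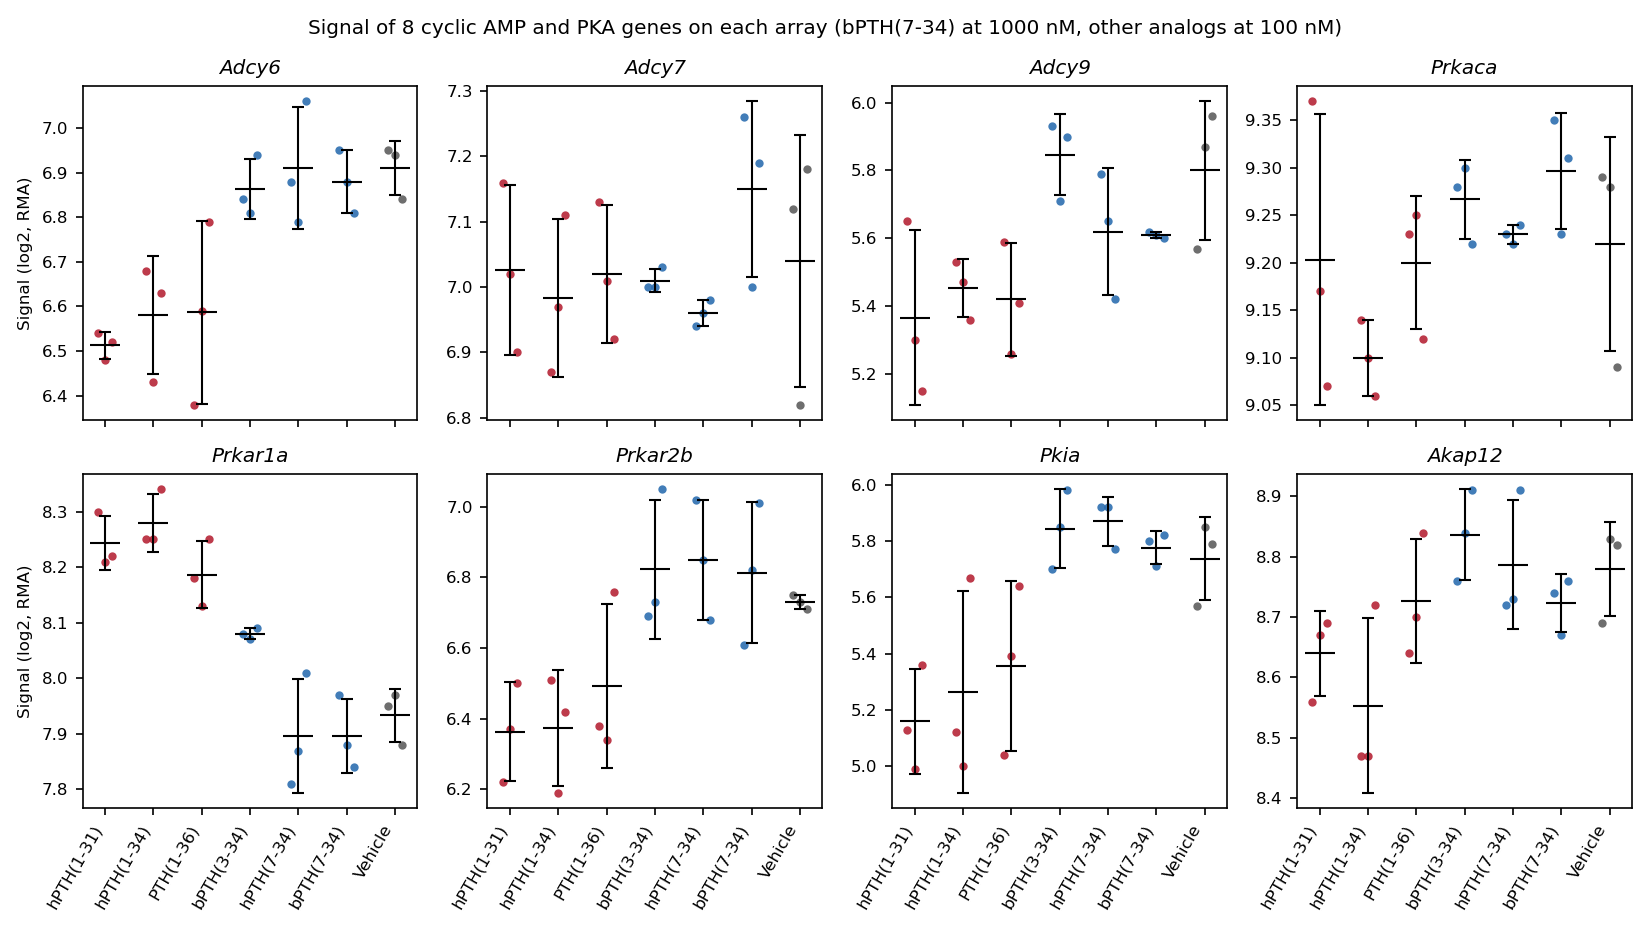
Log2 signal (vertical axis, RMA, a separate range in each panel) of the 8 measured genes on all 21 arrays by treatment, with points for arrays and bars for the mean and SD of 3. The 9 intact arrays of Prkar1a (8.13 to 8.34) lie above all 12 others (7.81 to 8.09), and those of Pkia (4.99 to 5.67) lie mostly below them (5.57 to 5.98).

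Among the cyclases, Adcy6, an isoform inhibited by calcium and by inhibitory G proteins, had signals of 6.54, 6.48 and 6.52 with hPTH(1-31), 6.68, 6.43 and 6.63 with hPTH(1-34) and 6.38, 6.59 and 6.79 with PTH(1-36). It had 6.84, 6.81 and 6.94 with bPTH(3-34), 6.88, 6.79 and 7.06 with hPTH(7-34), 6.95, 6.88 and 6.81 with bPTH(7-34), and 6.95, 6.94 and 6.84 in vehicle. The 9 intact arrays ran from 6.38 to 6.79 and the vehicle arrays from 6.84 to 6.95. How many of all genes part in this way is not given here. The highest PTH(1-36) array equalled the lowest truncated one. The intact mean differed from vehicle by -0.35 ± 0.08 (adjusted p = 0.00797). This call held in each of the 21 fits that omitted 1 array, with an adjusted p of up to 0.0487, close to the threshold. The exact two-sided permutation of 9 intact and 3 vehicle arrays gave an unadjusted p of 0.00455, the smallest that its 220 arrangements allow.

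Adcy9, a widely expressed cyclase that responds little to forskolin, had 5.65, 5.30 and 5.15 with hPTH(1-31), 5.53, 5.47 and 5.36 with hPTH(1-34) and 5.59, 5.26 and 5.41 with PTH(1-36). The other groups had 5.93, 5.71 and 5.90 with bPTH(3-34), 5.79, 5.65 and 5.42 with hPTH(7-34), 5.62, 5.61 and 5.60 with bPTH(7-34), and 5.57, 5.87 and 5.96 in vehicle. Vehicle array 1 lay inside the intact range, and the other 2 lay above it. The difference of the intact mean was -0.39 ± 0.11 (adjusted p = 0.0246, and unadjusted exact permutation p = 0.0136). The call rested on 2 vehicle arrays: the adjusted p was 0.123 without vehicle replicate 2 and 0.158 without vehicle replicate 3. It was also lost when all transcript clusters were tested (0.0530) and with array weights (0.0565).

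Adcy7, a cyclase strongly expressed in blood cells, did not separate the groups. Its signal ran from 6.87 to 7.16 over the 9 intact arrays (median 7.01), from 6.94 to 7.26 over the 9 truncated arrays (median 7.00) and had values of 7.12, 6.82 and 7.18 in vehicle. The intact mean differed from vehicle by -0.03 ± 0.08, with a 95% interval of -0.21 to 0.15 (adjusted p = 0.899).

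Prkaca, the main catalytic subunit of PKA, had signals of 9.06 to 9.37 over the intact arrays (median 9.14), 9.22 to 9.35 over the truncated arrays (median 9.24), and 9.29, 9.28 and 9.09 in vehicle. The groups overlapped and the difference of the intact mean was -0.05 ± 0.07 (interval -0.20 to 0.09, adjusted p = 0.742). The gene has a second cluster with a mean of 4.94 over all arrays, which was not called either (-0.16 ± 0.15, adjusted p = 0.705 among all clusters).

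Prkar1a encodes the type I alpha regulatory subunit, which holds the catalytic subunits inactive until cyclic AMP binds. It had 8.30, 8.21 and 8.22 with hPTH(1-31), 8.25, 8.25 and 8.34 with hPTH(1-34) and 8.18, 8.13 and 8.25 with PTH(1-36). It had 8.08, 8.07 and 8.09 with bPTH(3-34), 7.81, 7.87 and 8.01 with hPTH(7-34), 7.97, 7.88 and 7.84 with bPTH(7-34), and 7.95, 7.97 and 7.88 in vehicle. No intact array overlapped any of the other 12, a separation in the same direction seen in 2.91% of all genes. The intact mean exceeded vehicle by 0.30 ± 0.06 (adjusted p = 0.00178), and leaving out any 1 array kept the call. The exact permutation gave an unadjusted p of 0.00455, the smallest possible. Prkar1a was also the single measured member called with each of the 3 intact analogs, as were 5.28% of all genes. Its differences were 0.31 ± 0.07 with hPTH(1-31) (adjusted p = 0.0102), 0.35 ± 0.07 with hPTH(1-34) (0.00426) and 0.25 ± 0.07 with PTH(1-36) (0.0422). The PTH(1-36) call lay close to the threshold and was lost without 14 of the 21 arrays in turn (adjusted p up to 0.144), among them all 3 of its own and all 3 vehicle arrays, as well as with all clusters tested (0.0877) and with array weights (0.0782). The hPTH(1-31) call was lost without its replicate 1 (0.0505).

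The 3 arrays of bPTH(3-34) stood between the intact arrays and vehicle for Prkar1a. They did not overlap vehicle, as was so in the same direction for 4.89% of all genes. The difference of 0.15 ± 0.07 (interval -0.01 to 0.30) was not called (adjusted p = 0.847). hPTH(7-34) and bPTH(7-34) both differed from vehicle by -0.04 ± 0.07, with overlapping arrays.

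Prkar2b, the type II beta regulatory subunit, had 6.22, 6.37 and 6.50 with hPTH(1-31), 6.51, 6.19 and 6.42 with hPTH(1-34) and 6.38, 6.34 and 6.76 with PTH(1-36). Its other signals were 6.69, 6.73 and 7.05 with bPTH(3-34), 7.02, 6.85 and 6.68 with hPTH(7-34), 6.61, 6.82 and 7.01 with bPTH(7-34), and 6.75, 6.73 and 6.71 in vehicle. The vehicle arrays spanned only 6.71 to 6.75, and PTH(1-36) replicate 3 lay above them. Neither hPTH(1-31) (adjusted p = 0.128) nor hPTH(1-34) (0.141) was called against vehicle. The intact mean differed from vehicle by -0.32 ± 0.11, which missed the threshold over all genes (adjusted p = 0.0787), while the exact permutation of arrays gave an unadjusted p of 0.0227.

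Pkia, a peptide inhibitor that binds the free catalytic subunit and carries it out of the nucleus, had 5.13, 4.99 and 5.36 with hPTH(1-31), 5.12, 5.00 and 5.67 with hPTH(1-34) and 5.04, 5.39 and 5.64 with PTH(1-36). It had 5.70, 5.85 and 5.98 with bPTH(3-34), 5.92, 5.92 and 5.77 with hPTH(7-34), 5.80, 5.71 and 5.82 with bPTH(7-34), and 5.57, 5.85 and 5.79 in vehicle. Replicate 3 was the highest of each intact group, and the 9 intact arrays reached into the vehicle range at 5.64 and 5.67. The intact mean differed from vehicle by -0.48 ± 0.13 (adjusted p = 0.0228, and unadjusted exact permutation p = 0.0182). Vehicle replicates 2 and 3 each carried this call, with adjusted p = 0.130 and 0.0934 in the fits that omitted them.

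Akap12, an anchoring protein that binds PKA and protein kinase C, had signals of 8.47 to 8.84 over the intact arrays (median 8.67), 8.67 to 8.91 over the truncated arrays (median 8.76), and 8.69, 8.83 and 8.82 in vehicle. The groups overlapped. Its intact mean differed from vehicle by -0.14 ± 0.07 (interval -0.29 to 0.01, adjusted p = 0.280).

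For single analogs, hPTH(1-31) had 3 of the 8 genes called against vehicle, where 8.7% of all genes were called. Besides Prkar1a these were Adcy6 (-0.40 ± 0.10, adjusted p = 0.0180) and Pkia (-0.58 ± 0.16, adjusted p = 0.0320). hPTH(1-34), with 8.64% of all genes called, and PTH(1-36), with 7.23%, had 1 member called each, Prkar1a. Adcy6 stood near the threshold with both, at -0.33 ± 0.10 with hPTH(1-34) (adjusted p = 0.0528) and -0.32 ± 0.10 with PTH(1-36) (0.0651), and no test shows that the 3 analogs differ. Omitting vehicle replicate 1 (0.0660), vehicle replicate 2 (0.0626) or hPTH(1-31) replicate 2 (0.0638) ended the Adcy6 call of hPTH(1-31). The Pkia call ended when vehicle replicate 2 (0.119), vehicle replicate 3 (0.0922), hPTH(1-31) replicate 1 (0.0908) or hPTH(1-31) replicate 2 (0.138) was omitted, and none of the 5 single-analog calls passed when its 2 groups were fitted alone (adjusted p from 0.0598 to 0.292).

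Set against bPTH(3-34), which lacks the first residues, the intact mean was lower in Pkia, Adcy9, Prkar2b and Adcy6. These were 4 of the 8 genes, and 12.6% of all genes were called in that contrast. Pkia fell 1.50-fold (-0.58 ± 0.13, adjusted p = 0.00565) and Adcy9 fell 1.35-fold (-0.43 ± 0.11, 0.0116). Prkar2b fell 1.33-fold (-0.41 ± 0.11, 0.0200) and Adcy6 fell 1.23-fold (-0.30 ± 0.08, 0.0204). For Prkar1a the difference was 0.16 ± 0.06 (interval 0.03 to 0.28) and was not called (adjusted p = 0.103), although no arrays overlapped, as was so in the same direction for 5.27% of all genes. Akap12 had -0.20 ± 0.07 (adjusted p = 0.0939), Prkaca -0.10 ± 0.07 (0.425) and Adcy7 0.00 ± 0.08. This contrast shares its 9 intact arrays with the one against vehicle. In it 13 of 14 macrophage markers were lower and 1 was higher (median -0.09, against -0.003 over all genes), with 0 called. Of 12 innate immune genes 7 were called higher and 0 lower. The part of these transcripts in the member differences was not tested. Without bPTH(3-34) replicate 3 none of the 4 calls held (Adcy6 0.118, Adcy9 0.0650, Prkar2b 0.173, Pkia 0.0504), and without replicate 1 those of Adcy6 (0.0634) and Adcy9 (0.0762) did not.

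**Figure D2:**
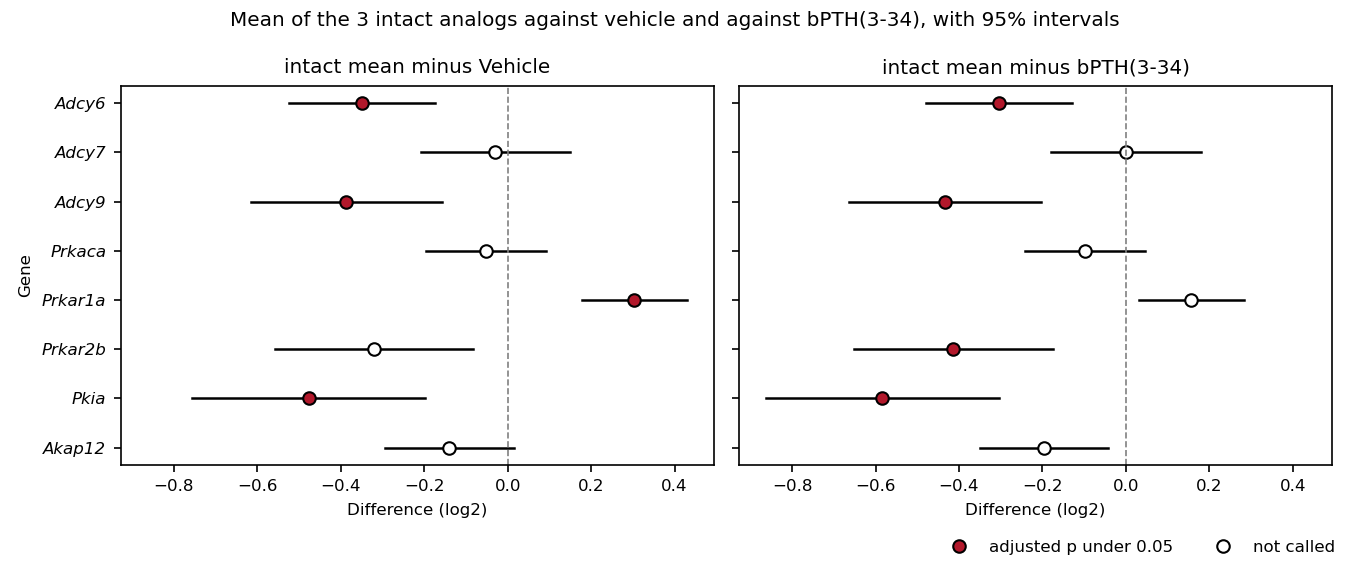
Difference in log2 signal (horizontal axis) of the mean of the 3 intact analogs from vehicle (left) and from bPTH(3-34) (right) for the 8 measured genes, with 95% intervals. Filled points passed an adjusted p of 0.05 over all genes: Adcy6, Adcy9, Prkar1a and Pkia on the left, and Adcy6, Adcy9, Prkar2b and Pkia on the right.

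Of the 5 analogs at 100 nM, 6 pairs were compared. Within the 3 intact pairs none of the 8 genes was called in limma or had an unadjusted p under 0.05 (0 in each pair), and of all genes 0% were called between hPTH(1-31) and hPTH(1-34) and 0.00451% in each of the other pairs. hPTH(1-31), which ends before hPTH(1-34) does, differed from it by -0.04 in Prkar1a (interval -0.19 to 0.12), -0.07 in Adcy6 (-0.28 to 0.15), -0.09 in Adcy9 (-0.37 to 0.19) and -0.10 in Pkia (-0.45 to 0.24). PTH(1-36), which runs past it, differed from hPTH(1-34) by -0.09 in Prkar1a (-0.25 to 0.06), 0.01 in Adcy6 (-0.21 to 0.22), -0.03 in Adcy9 (-0.31 to 0.25) and 0.09 in Pkia (-0.25 to 0.44). hPTH(1-31) minus PTH(1-36) gave 0.06 in Prkar1a (-0.10 to 0.21) and -0.20 in Pkia (-0.54 to 0.15). The intervals for Adcy9 and Pkia reach sizes like those of the differences from vehicle, and a p above the threshold does not show that the 3 peptides act alike.

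The truncated analogs did differ from hPTH(1-34). With hPTH(7-34), 4 of the 8 genes were called where 10.9% of all genes were. Prkar1a fell by 0.38 (SE 0.07, adjusted p = 0.00171) relative to hPTH(1-34). Pkia was higher by 0.61 ± 0.16 (0.0202), Prkar2b by 0.48 ± 0.14 (0.0319) and Adcy6 by 0.33 ± 0.10 (0.0447). With bPTH(3-34), 2 of the 8 were called, and 9.32% of all genes: Pkia was higher than with hPTH(1-34) by 0.58 ± 0.16 (0.0298) and Prkar2b by 0.45 ± 0.14 (0.0487). Macrophage markers were mostly a little higher than with hPTH(1-34). With hPTH(7-34) 14 of 14 were (median difference 0.19, against 0 over all genes), and with bPTH(3-34) 13 of 14 (median 0.07). Only Cx3cr1 of these 14 was called in each pair, 7.14% of the list and below the share of all genes. Of 12 innate immune genes 4 were called lower with hPTH(7-34) and 7 with bPTH(3-34), and 0 higher. Pth1r was called higher and Alpl and Kdr lower in both pairs. Sp7 and Tek were also called higher and Col2a1 lower with hPTH(7-34). The part of these transcripts in the member differences was not tested. Between hPTH(7-34) and bPTH(3-34) none of the 8 was called in limma, against 0.0496% of all genes, and 1 had an unadjusted p under 0.05. That was Prkar1a, with -0.18 (interval -0.34 to -0.03, adjusted p = 0.930), while Pkia differed by 0.03 (-0.32 to 0.37).

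When p-values were adjusted over all genes and the 6 pairs together, only the Prkar1a difference between hPTH(7-34) and hPTH(1-34) was still called (adjusted p = 0.00513). It was also the only 1 of the 6 pair calls kept without any single array. Of the others, Adcy6 was lost without 16 of the 21 arrays in turn (adjusted p up to 0.194) and Prkar2b with bPTH(3-34) without 15 (up to 0.220). Pkia was lost from both pairs without hPTH(1-34) replicate 1 (0.0830 with hPTH(7-34), 0.114 with bPTH(3-34)) or replicate 2 (0.112 and 0.155). Its call with hPTH(7-34) was also lost without replicate 1 (0.0703) or 2 (0.0691) of that analog, and its call with bPTH(3-34) without replicate 2 (0.0760) or 3 (0.121) of that one. Prkar2b with hPTH(7-34) was lost without hPTH(1-34) replicate 2 (0.146) or 3 (0.0633), and without hPTH(7-34) replicate 1 (0.145) or 2 (0.0822). bPTH(7-34) was used at 1000 nM and was compared with vehicle alone.

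A moderated F test over the 6 contrasts with vehicle called Prkar1a (adjusted p = 0.00116), Pkia (0.00926), Adcy6 (0.0146) and Prkar2b (0.0353), 4 of the 8 where 12.2% of all genes were called. Adcy9 (0.0801), Akap12 (0.284), Prkaca (0.653) and Adcy7 (0.830) were not. The order of the 7 group means was similar in Adcy6, Prkar2b and Pkia. In each the lowest were hPTH(1-31), hPTH(1-34) and PTH(1-36), at 6.51, 6.58 and 6.59 for Adcy6, 6.36, 6.37 and 6.49 for Prkar2b and 5.16, 5.26 and 5.36 for Pkia. The step up to the next group exceeded the larger SD of the 2 neighbours, and no other step in these 3 genes did. In Prkar2b it did so only just (0.237 against 0.232). The PTH(1-36) arrays overlapped vehicle in Prkar2b and Pkia, so such steps are a description only. In Adcy9 the intact groups were lowest too, at 5.37, 5.45 and 5.42, with one such step above hPTH(1-34). Prkar1a had 2 such steps, from PTH(1-36) (8.19) down to bPTH(3-34) (8.08) and from there down to vehicle (7.93).

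The wider pathway was described with 47 genes for cyclases, PKA subunits, PKA inhibitors, anchoring proteins, the receptor with its G proteins, and other cyclic AMP effectors, of which 44 were measured and 8 are the members above. These genes too were listed with earlier results of these data known. Between the intact mean and vehicle 11 of the 44 (25%) were called, 5 higher and 6 lower, against 11.9% of all genes, and the median difference was -0.01 over the list and -0.02 over all genes. Without the members, which supply 4 of the 11, 7 of 36 (19.4%) were called, 4 higher and 3 lower, with a median of 0.01. Of 9 cyclases 0 rose and 2 fell (Adcy6 and Adcy9), of 6 PKA subunits 1 rose (Prkar1a), and of 2 PKA inhibitors 1 fell (Pkia). Of 17 anchoring proteins 3 rose and 1 fell, of 6 receptor and G protein genes 1 rose and 2 fell, and none of the 4 other effectors was called in limma or had an unadjusted p under 0.05 (0 of 4). The other PKA genes did not pass: Prkacb had -0.14 ± 0.07 (adjusted p = 0.221), Prkar1b -0.27 ± 0.09 (0.0504), Prkar2a 0.00 ± 0.09 (0.988) and Pkib 0.08 ± 0.14 (0.816).

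Upstream of the cyclases, Pth1r fell by 1.07 (SE 0.10, adjusted p = 3.75e-07) and Gnai1, an inhibitory G protein subunit, fell by 0.71 (SE 0.09, 9.93e-06). Gnal, a stimulatory subunit best known from olfactory neurons, rose by 0.77 ± 0.15 (0.00146), while Gnas, the usual stimulatory subunit, had -0.01 ± 0.06 (0.955). The cluster read for Gnas had 5.46 to 5.65 over the intact arrays and 5.46 to 5.69 in vehicle. These values lay below the upper quartiles of the arrays (5.74 to 5.82). Gnal was dim, with 3.15 to 3.93 over the intact arrays and 2.48, 2.87 and 3.03 in vehicle, where all 3 values lay below the array medians, so the size of its difference is uncertain. Among the anchoring proteins Akap2 rose by 0.63 ± 0.07 (4.73e-06), Akap13 rose by 0.33 ± 0.08 (0.00827), and Akap11 rose by 0.29 ± 0.09 (0.0363). Akap6, which gathers PKA at the nuclear envelope of muscle cells, fell by 0.74 (SE 0.16, 0.00391). Its signal was low too, at 3.55 to 4.28 over the intact arrays and 4.58 to 4.75 in vehicle. The intact values reached down to the array medians of 3.49 to 3.61, so the size of the Akap6 difference is uncertain. Akap6 was not called with PTH(1-36) alone or between the intact mean and bPTH(3-34). Akap13 lost its call without vehicle replicate 1 (0.0716). Akap11 lost it without vehicle replicate 1 or 2, hPTH(1-31) replicate 1 or 3, hPTH(1-34) replicate 1 or 3, or PTH(1-36) replicate 3 (7 arrays, adjusted p up to 0.265), with all clusters tested (0.0740) and with array weights (0.0504).

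**Figure D3:**
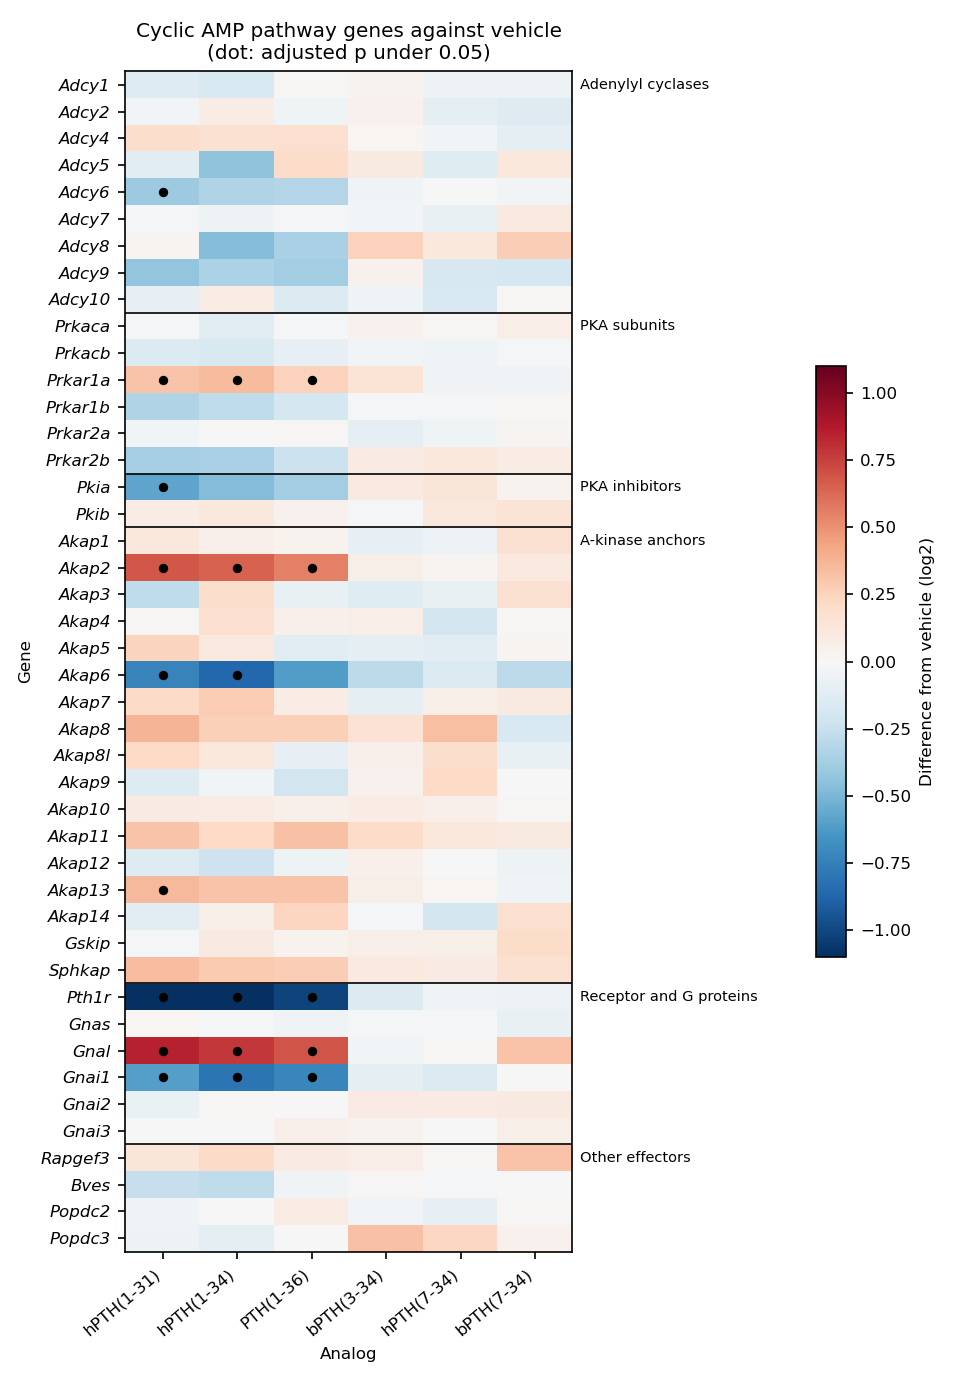
Log2 difference from vehicle (colour) of the 44 measured cyclic AMP genes (rows, by family) for the 6 analogs (columns), with dots for an adjusted p under 0.05. Dots stand only in the columns of the 3 intact analogs, and Prkar1a, Akap2, Gnal, Gnai1 and Pth1r have one in each of the 3.

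For the 3 members with the smallest F test p, the genes with the most similar profile were found by Pearson correlation over the 7 group means, which all genes share. The 2439 candidates were genes called by the F test with a mean of at least 4, without predicted genes, clones and small RNAs. Prkar1a was most like Gsg1l (0.983), Twf1 (0.980) and Dnajc5 (0.980). Pkia was most like Gatd1 (0.998), Rps6ka5 (0.997) and Chd6 (0.997), and Adcy6 most like Apbb1 (0.998), Ube2r2 (0.998) and Ypel2 (0.997). These correlations over 7 points are a description only.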

How the data were processed

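RNA from 21 cultures was measured on Mouse Gene 2.0 ST arrays, 1 dye each. The authors deposited log2 signals made by RMA in Expression Console, per the submitters' processing notes. Steps, versions and the base of the logarithm are not given in the sources used here, so log2 was read from the method and from the range of values (0.25 to 13.6), and folds rest on that. Of 41345 transcript clusters, 23521 had 1 gene symbol, 1814 several and 16010 were unnamed in the platform annotation. The first kind gave 22180 genes.

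All 21 arrays entered 1 fit of 7 groups in limma 3.58.1 (R 4.3.3), with two-sided p-values, Benjamini-Hochberg adjustment within each contrast across all genes, and calls at 0.05. Intervals are 95%. The calling procedure was run on simulated data with known changes and independent noise. That simulation held no shared replicate effect and does not bear on any single call above. Single values were also tested by exact permutation of arrays, with p-values not adjusted over genes. Same-numbered arrays of different groups deviated together weakly, with a median correlation of 0.03 over 63 pairs (-0.08 to 0.16, 1 above 0.1). The median was -0.01 over 126 pairs of different numbers, and 15 of the 21 arrays correlated best with their own number. The labels do not say that a replicate number marks 1 preparation. Numbers were therefore not used as pairs in the main fit, and a shared replicate effect remains possible. Alternatives were a filter at a mean of 4, all clusters, equal array medians, a trended robust prior, array weights, a replicate block, 2-group fits and leaving out each array. Named genes are all members, wider-list genes called against vehicle, and the 3 closest profiles of 3 members. Members and lists were chosen with earlier results of these data known. There is no read depth on arrays, so precision depends on how many there are.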

Additional observations from a re-analysis of the deposited data

How the results depend on the processing

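Over the 6 contrasts with vehicle, 5 calls were made among the members. This count was 10 with genes of a mean of at least 4, 3 with all transcript clusters, 9 with a trended robust prior, 9 with the replicate block, 0 with fits of 2 groups alone, and 2 to 7 when arrays were left out in turn, with 2 without vehicle replicate 2 or hPTH(1-31) replicate 2 and 3 without vehicle replicate 3. The 4 calls of the intact mean against vehicle were 2 to 5 and the 4 against bPTH(3-34) were 0 to 5 when arrays were left out. The lowest counts came without vehicle replicate 2 or 3 (2 each) and without bPTH(3-34) replicate 3 (0) or 1 (2). The 6 pair calls were 11 with genes of a mean of at least 4, 2 with all clusters, 1 when adjusted over the 6 pairs together, and 1 to 7 without single arrays, with 1 without hPTH(1-34) replicate 2 and 3 each without hPTH(1-34) replicate 1, bPTH(3-34) replicate 2 or 3, or hPTH(7-34) replicate 1 or 2. The F test count of 4 was 3 to 4 and the 11 pathway calls were 9 to 12 without single arrays.

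Signs turned only for differences that were never called. Adcy7 with hPTH(1-31) was 0.0067 with equal array medians and 0.0036 with array weights, and Prkaca with hPTH(1-31) was 0.0033 with equal medians. Without single arrays, Adcy7 ranged from -0.12 to 0.057 with hPTH(1-31), -0.17 to 0.013 with hPTH(1-34), -0.13 to 0.05 with PTH(1-36) and -0.14 to 0.04 for the intact mean. Prkaca ranged from -0.10 to 0.05 with hPTH(1-31) and from -0.085 to 0.02 with PTH(1-36). The replicate block raised the calls over all genes with hPTH(1-34) to 2190, against 1917 without it, and the members called there to 4, against 1. Of 21 arrays, 15 correlated best with an array of their own number. The cause of these changes was not tested.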
